A study of Glycine max with 6 samples.

Results

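The subject is the bZIP transcription factor family in soybean leaves sprayed with a Nod factor, in plants of the cultivar OAC Bayfield. A soybean probe set of the array was taken as a member when every gene paired with it carries a symbol or synonym of the form BZIP or GmBZIP with a number, which gave 109 of 37593 soybean probe sets. Of these, 103 are paired with 1 gene, under 67 gene labels out of 6031 soybean genes with a probe set of their own, and 6 with several bZIP genes. The choice used names and no measured value. The 3 control arrays hold RNA of first trifoliolate leaves of V1 plants that received 2 mL of water with 0.02% of the detergent Tween 20. The 3 treated arrays hold the same leaf after 2 mL of the same solution with 1e-07 M LCO, the lipo-chitooligosaccharide NodBj-V of Bradyrhizobium japonicum. All leaves were taken 48 h after the spray, and whole leaf tissue was ground, so all cell types of the leaf contribute. The labels name no genetic change in either group, and nothing says how many plants stand behind an array.

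bZIP factors bind DNA as dimers: a basic region grips the DNA, most often at sites with an ACGT core, and a leucine zipper beside it joins the partners. Plants have many of them, in groups with different tasks. In Arabidopsis the AREB and ABF factors carry abscisic acid signals, HY5 promotes growth in the light, TGA factors act with NPR1 in salicylic acid defence, G-box factors bind light- and stress-regulated promoters, and a group of small bZIPs answers low energy supply. Much of the control of these proteins lies after transcription, in phosphorylation, partner choice and location in the cell, which an array of transcripts does not see. The numbers in the soybean names do not by themselves mark the Arabidopsis gene of the same number.

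Values are the log2 RMA values deposited for each probe set, so a step of 1 is a factor of 2 in signal. A probe set was tested when its mean over the 6 arrays lay above 3.31, the 90th percentile of the array's probe sets for a plant pathogen and a nematode, which served as the background level. Water 1 and water 2 were the closest arrays, with an SD of their difference of 0.198 over the tested probe sets, while water 3 lay 0.450 to 0.459 from them and 0.487 from LCO 2. For some members, fits without water 3 or with water 1 and 2 averaged are given as well. Leaf markers (Rubisco activase, chlorophyll-binding proteins and photosystem subunits) had a median level of 11.7 over 18 probe sets, 3 of them at background. All 14 probe sets of seed storage proteins and 12 of 18 nodule-gene probe sets lay at background, and 2 of the other 6, both of the sucrose synthase SS, rose. Among the 11 probe sets of sieve element occlusion proteins, which mark phloem, 4 lay at background. None of the 7 tested ones passed by limma, although 5 had an unadjusted p under 0.05, where 25.8% of all tested probe sets had one. Their mean was 4.56 to 4.64 in the water arrays and 4.99 to 5.54 in the LCO arrays. RNA quality was read from control genes with probe sets at both ends. The 3′ minus 5′ log2 difference of P450 came to 0.976 ± 0.029 in the water arrays and 2.27 ± 0.60 in the LCO arrays (SD, n = 3). For the GlutTrans control it was 0.386 ± 0.351 and 0.599 ± 0.272, and for Actin, whose 5′ probe set was dim, 5.38 ± 0.02 and 5.50 ± 0.25. The groups overlapped in both of these controls. The mean phloem marker level and the P450 difference were thus higher in all 3 LCO arrays than in any water array, and their part in the changes below was not tested.

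The comparison asks which bZIP transcripts differ 48 h after the spray. BZIP94 and BZIP95 fell with LCO, and no bZIP probe set rose. The BZIP94 probe set that passed was at least 3.17-fold lower, its signal reaching the background level in all LCO arrays. The other probe set of that gene lay near the background level with LCO, measured 1.86-fold lower and did not pass. BZIP95, one of the brighter members, was 1.84-fold lower. The remaining 93 of 95 tested bZIP probe sets did not pass (limma, Benjamini-Hochberg adjusted p under 0.05 over all 29286 tested soybean probe sets). Over all tested probe sets 3.55% passed, 1.67% higher and 1.88% lower, and 2 of 95 members is near that share. The median log2 change of the tested members was -0.03, against -0.01 over all tested probe sets, with 49 estimates lower and 46 higher. In leaf tissue, fewer cells of a type and less RNA per cell cannot be told apart.

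**Figure D1:**
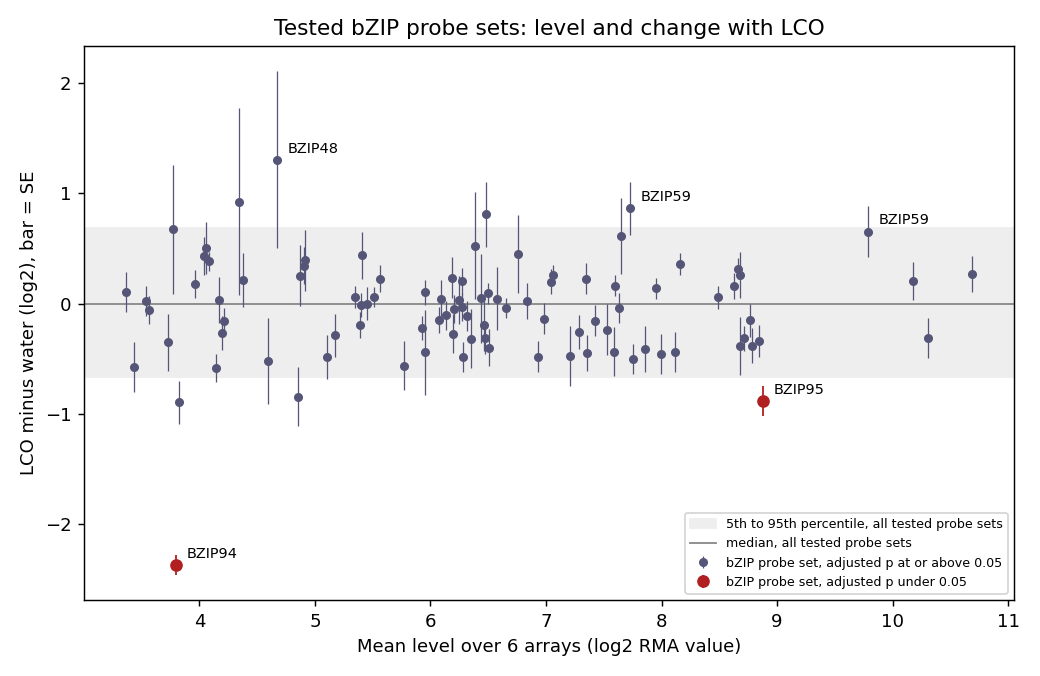
Each point is 1 of the 95 tested bZIP probe sets, placed by its mean log2 RMA value over 6 arrays (horizontal axis) and its LCO minus water log2 change with the standard error (vertical axis); the grey band spans the 5th to 95th percentile of all 29286 tested probe sets, from -0.67 to 0.69. BZIP95 at -0.88 and BZIP94 are the red points that passed; BZIP94 is drawn at its measured difference of -2.37, which rests on LCO values under the background level, and BZIP48 stands highest at 1.31 with a long error bar.

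BZIP94 is paired with 2 probe sets. The first read 4.94, 5.02 and 4.98 in water 1, 2 and 3 and 2.54, 2.59 and 2.69 in LCO 1, 2 and 3. The arrays of each group lay within a narrow span, and a gap of 2.24 separated the groups. The means were 4.98 ± 0.04 in water and 2.61 ± 0.08 with LCO (SD, n = 3), and the limma adjusted p was 1.45e-04. All 3 LCO values lay under 3.31, so the true ratio is known only as a lower bound, and the probe set passed the filter only through its water arrays. It was the 1 tested member with a group wholly under that level. Its identifier has the suffix that the manufacturer gives to probe sets shared by several transcripts, so signal from a related transcript cannot be set aside. The second BZIP94 probe set read 4.51, 3.88 and 4.43 in water and 3.22, 3.59 and 3.32 with LCO. These groups did not overlap either, but the step was smaller and the spread in water larger. Its log2 change was -0.90 (SE 0.20, limma adjusted p = 0.0631), which did not pass. LCO 1 lay under the background level and LCO 3 just above it, so the size of this change is uncertain as well.

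BZIP95 had 1 probe set, at 9.44, 9.38 and 9.13 in water and 8.52, 8.56 and 8.22 with LCO. Its level lay above 83.7% of all tested probe sets, far from the background level. The log2 change was -0.88 (SE 0.14, limma adjusted p = 0.0286), and the lowest water array stood 0.57 above the highest LCO array. The call did not hold without water 1 (adjusted p = 0.136), without water 2 (0.134), without LCO 1 (0.0592), without LCO 2 (0.0672) or without LCO 3 (0.0731), nor with water 1 and 2 averaged (0.131). Without water 3 it held at 0.0249. The change itself ran from -0.97 to -0.78 over all alternatives. BZIP94 kept its call with any 1 array left out, with limma adjusted p from 0.00117 to 0.00290. Those fits kept the same filter, which this probe set passed only through its water arrays. They are therefore no separate support for its call.

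The gene table ties BZIP95 to a further record. LOC778136 lists bZIP95, bZIP96 and GmTGA24 as synonyms, the last of these a TGA factor name, while the record called BZIP95 is 1 of 3 member gene identifiers without an entry in the RefSeq table. The LOC778136 probe set read 8.39, 8.33 and 7.94 in water and 7.95, 7.88 and 7.46 with LCO. Water 3 fell just under LCO 1, so the groups met. The log2 change was -0.46 (SE 0.18, limma adjusted p = 0.181). This gene was chosen after its values were seen, for its synonym.

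**Figure D2:**
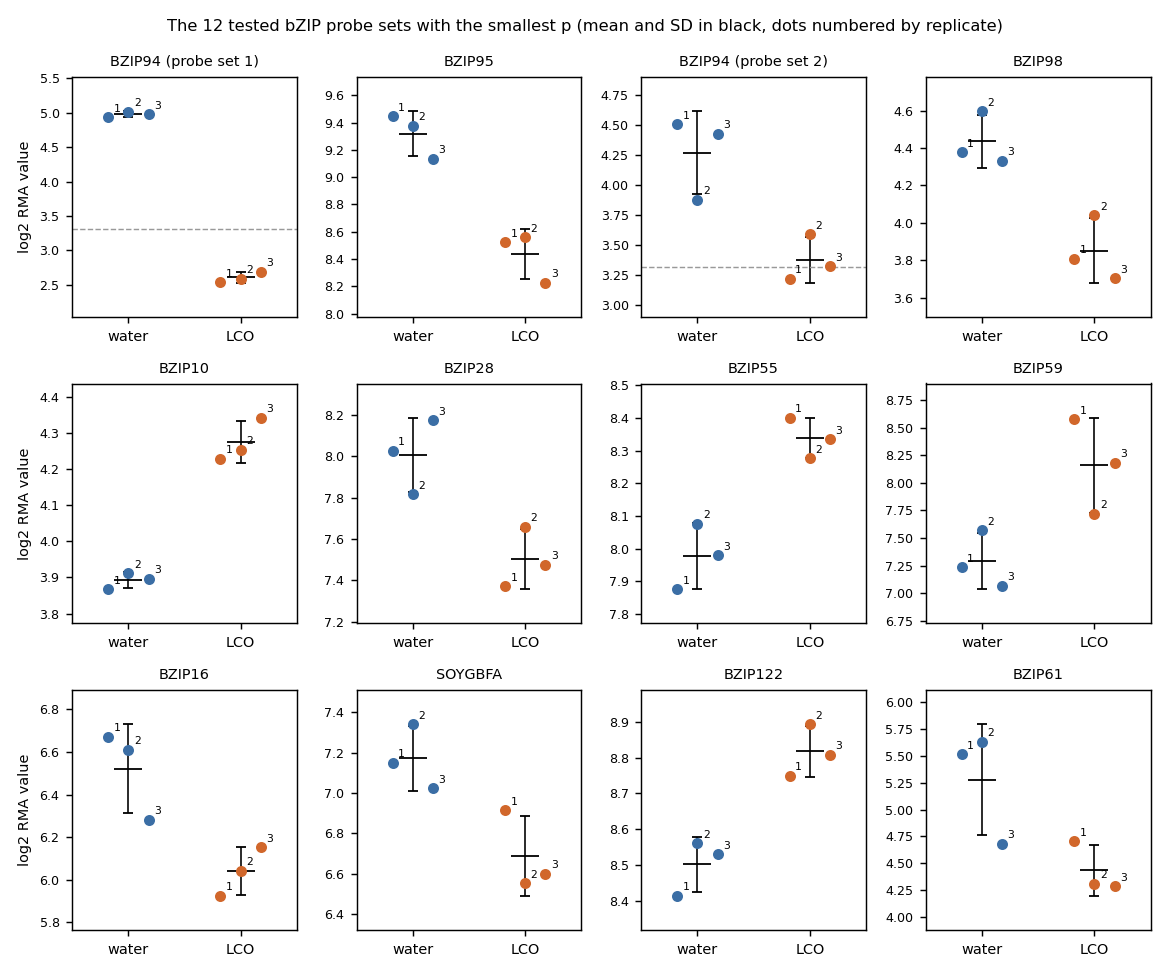
Log2 RMA values (vertical axes, a scale for each panel) of the 12 tested bZIP probe sets with the smallest p in the 3 water and 3 LCO arrays; dots carry the replicate number, black marks show mean and SD, and the dashed line is the background level of 3.31. The groups are apart in 11 of these panels and meet in BZIP61.

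Among the other 10 of the 12 bZIP probe sets with the smallest p, besides the second of BZIP94, BZIP98, BZIP28, BZIP16, SOYGBFA and BZIP61 had lower estimates with LCO and BZIP59, BZIP10, BZIP55 and BZIP122 had higher ones. None passed, with limma adjusted p from 0.0631 to 0.124. The groups did not overlap in 17 of 95 tested members, 8 higher and 9 lower with LCO. That is 17.9% of the members, where 31.5% of all tested probe sets had groups that did not overlap, 15.3% higher and 16.3% lower. Of the 17, 15 did not pass. An unadjusted p under 0.05 was found for 25 members, 17 lower and 8 higher, or 26.3% of them against 25.8% of all tested probe sets (12.5% higher, 13.3% lower). A change of at least 2-fold, with no test, was seen in 2 members, BZIP94 lower and BZIP48 higher, where 4.68% of all tested probe sets had one (2.61% higher, 2.08% lower). The median absolute log2 change was 0.267 for the members and 0.205 over all tested probe sets. The median SD within the water arrays was 0.204 for the members and 0.144 over all tested probe sets.

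BZIP59 had the highest estimates among genes with several probe sets apart from BZIP50. Its 3 probe sets differ widely in level. The brightest read 9.60, 9.73 and 9.04 in water and 10.45, 9.87 and 10.02 with LCO. The middle one read 7.24, 7.57 and 7.07 in water and 8.58, 7.72 and 8.18 with LCO, and LCO 1 was the high array in both. Their log2 changes were 0.65 (SE 0.23) and 0.87 (SE 0.24), with limma adjusted p of 0.147 and 0.0970. The dimmest read 3.81, 3.93 and 3.74 in water against 3.89, 4.43 and 4.46 with LCO, where LCO 1 fell within the water range. As a mean of 3 probe sets the change was 0.65 (SE 0.15, limma adjusted p = 0.0684).

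BZIP10 was also higher in its estimates. Its dim probe set was very even within groups, at 3.87, 3.91 and 3.90 in water and 4.23, 4.25 and 4.34 with LCO, a log2 change of 0.38 (SE 0.09, limma adjusted p = 0.0672). Its brighter probe set read 6.03, 5.53 and 6.65 in water and 6.61, 7.17 and 6.88 with LCO, a change of 0.81 (SE 0.29, limma adjusted p = 0.154). There water 3 stood above LCO 1, and without water 3 the change was 1.10 (limma adjusted p = 0.0446). BZIP55 read 7.88, 8.08 and 7.98 in water and 8.40, 8.28 and 8.34 with LCO in its brighter probe set. Both of its probe sets kept the groups apart, with log2 changes of 0.36 and 0.26. BZIP122 had a change of 0.32 (SE 0.10, limma adjusted p = 0.113), from 8.50 ± 0.08 to 8.82 ± 0.07.

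Of the lower estimates, BZIP98 read 4.38, 4.60 and 4.33 in water and 3.81, 4.04 and 3.70 with LCO in its dimmer probe set, a log2 change of -0.58 (SE 0.13, limma adjusted p = 0.0643). Its brighter one, at 8.47, 8.46 and 8.08 against 7.94, 8.16 and 7.60, had a change of -0.44 with water 3 inside the LCO range. BZIP28 had a change of -0.50 (SE 0.13, limma adjusted p = 0.0890) in its first probe set, at 8.03, 7.82 and 8.18 in water and 7.37, 7.66 and 7.48 with LCO. Its second probe set overlapped between groups, with a change of -0.24 (SE 0.23, limma adjusted p = 0.556), and only LCO 1 lay clearly below the rest, at 6.90. BZIP16 read 6.67, 6.61 and 6.28 in water and 5.93, 6.04 and 6.15 with LCO. BZIP61 read 5.52, 5.63 and 4.68 against 4.71, 4.31 and 4.29, so that water 3 lay with the LCO arrays. Without water 3, BZIP16 and BZIP61 passed as lower, with changes of -0.60 (limma adjusted p = 0.0416) and -1.14 (0.0241).

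Array water 3 decided the separation of many members. In 33 of 95 tested members, 24 lower and 9 higher with LCO, the groups overlapped over all arrays and came apart once water 3 was left out, which is 34.7% of members against 20.5% of all tested probe sets. For the other arrays these shares were 3.16% against 3.86% for water 1, 5.26% against 4.94% for water 2, 20.0% against 15.1% for LCO 1, 17.9% against 8.29% for LCO 2 and 8.42% against 8.33% for LCO 3. Without water 3 the fit called 6 bZIP probe sets, that of BZIP10 higher and those of BZIP94, BZIP95, BZIP61, BZIP16 and BZIP71 lower. That is 6.32% of the members, near the 7.54% of all tested probe sets called without water 3. With any other array left out it called 1, that of BZIP94.

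The named classes of the family can be read by role. For abscisic acid, BZIP1 (AREB1, a factor of the abscisic acid response element) had probe sets at 7.84, 7.58 and 6.91 in water against 7.28, 6.98 and 6.66 with LCO, and at 6.91, 6.80 and 6.41 against 6.48, 6.31 and 6.13. In both, water 3 was the low control array and lay among the LCO values. The log2 changes were -0.47 (SE 0.27) and -0.40 (SE 0.17), with limma adjusted p of 0.318 and 0.193. BZIP62, studied for abscisic acid and salt responses in Arabidopsis plants that carry the soybean gene, had log2 changes of -0.31 (SE 0.14) and -0.22 (SE 0.11) in its tested probe sets, with limma adjusted p of 0.217 and 0.256. BZIP44 and BZIP132 lay at background, with means over 6 arrays of 3.05 and 3.06. The genes in this paragraph and in the next, other than SOYGBFA, were chosen for their role after their values were seen.

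Light and G-box factors gave mixed estimates. BZIP36 (SOYSTF1A), a relative of Arabidopsis HY5, read 6.46, 6.47 and 6.76 in water and 5.88, 6.41 and 6.80 with LCO, so that the groups overlapped (log2 change -0.20, SE 0.24, limma adjusted p = 0.631). STF2 (SOYSTF1B), of the same type, had changes of 0.39 (SE 0.28) and -0.52 (SE 0.39) in its probe sets, which point in opposite directions, and neither passed. SOYGBFA (GBF1), a G-box binding factor, read 7.15, 7.34 and 7.02 in water and 6.92, 6.55 and 6.60 with LCO. The water arrays were all higher, by a narrow margin of 0.11, and the log2 change was -0.48 (SE 0.14, limma adjusted p = 0.107). GBF2, a further G-box factor, had 1 tested probe set near background, at 3.90 ± 0.39 in water and 3.55 ± 0.38 with LCO.

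The most abundant signals of the family belonged to other members. Signal differs between probe sets for reasons of probe sequence, so the order of levels describes the array and not the amounts of RNA. LOC780550 (bZIP53A) read 10.68, 10.73 and 10.24 in water and 10.97, 10.81 and 10.68 with LCO. BZIP53B read 10.20, 10.20 and 9.81 against 10.56, 10.23 and 10.06. In both, water 3 was the lowest array of the 6, and the changes of 0.27 (SE 0.16) and 0.21 (SE 0.17) did not pass (limma adjusted p = 0.342 and 0.483). The third probe set with a mean above 10 is paired with several bZIP genes and had a change of -0.31 (SE 0.18). The other probe sets among the 5 brightest were the brightest of BZIP59 and that of BZIP95, described above.

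Probe sets of 1 gene gave a check within the family. Of 25 gene labels with more than 1 tested probe set, 20 had estimates of the same sign in all of them, 11 lower and 9 higher. In the other 5 (STF2, BZIP68, BZIP110, LOC778196 and BZIP70) the signs differed. Probe sets of a gene share their samples and partly their sequence and are no replicates of the treatment. After averaging, 2 of 60 gene labels passed, again BZIP94 and BZIP95, and the count is not read as a trait of the family. Before averaging, 3.55% of all tested probe sets passed. The averaged value of BZIP94 includes LCO values under the background level.

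**Figure D3:**
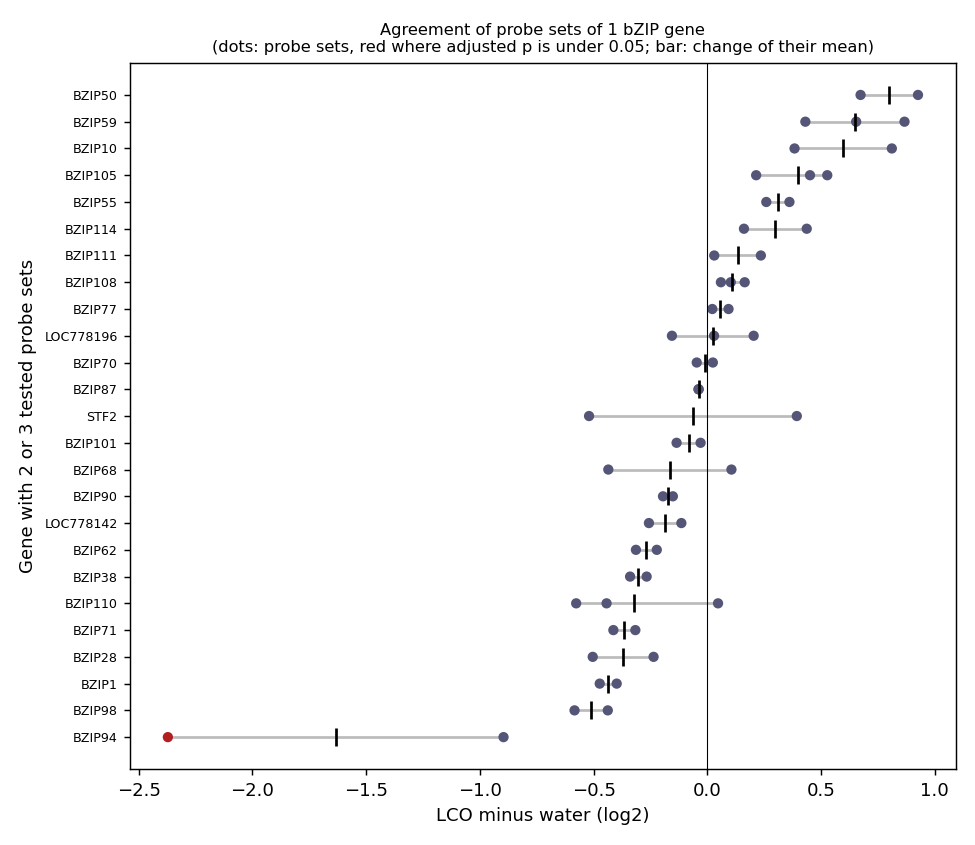
LCO minus water log2 change (horizontal axis) of each tested probe set for the 25 bZIP gene labels with 2 or 3 of them (rows); dots are probe sets, red where the adjusted p is under 0.05, and the black bar is the change of their mean. BZIP94 lies apart at the lower end. All LCO values of 1 of its probe sets, and LCO 1 of the other, lay under the background level. The dots of STF2 span zero from -0.52 to 0.39.

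Some members differed more between arrays of a group than between groups. The 6 probe sets with the widest range over the arrays, picked after their values were seen, were those of BZIP50, BZIP48, BZIP94, BZIP105 and STF2. BZIP50 read 3.37, 2.73 and 5.54 in water and 4.08, 4.20 and 6.15 with LCO, and its other probe set 2.91, 2.86 and 4.53 against 3.55, 3.68 and 5.10. BZIP48 read 3.27, 3.08 and 5.71 in water and 4.64, 4.86 and 6.47 with LCO. In all 3 probe sets, water 3 and LCO 3 were the highest arrays of the 6, with water 3 above the mean of water 1 and 2 by 2.49, 1.65 and 2.53. Their log2 changes of 0.93 (SE 0.85), 0.67 (SE 0.59) and 1.31 (SE 0.80) did not pass (limma adjusted p of 0.525, 0.502 and 0.349), although the change of BZIP48 was the highest estimate of the family. With the replicate number as a block in the model, the last 2 of these passed, with limma adjusted p of 0.0290 and 0.0313. The labels do not say that the numbers pair the arrays. BZIP105 went the other way in its LCO arrays. LCO 1 stood out at 7.82 against 6.20 and 5.92, with the water arrays at 6.40, 6.13 and 5.84, and the same array was highest in its other 2 probe sets, at 7.83 and 5.03.

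**Figure D4:**
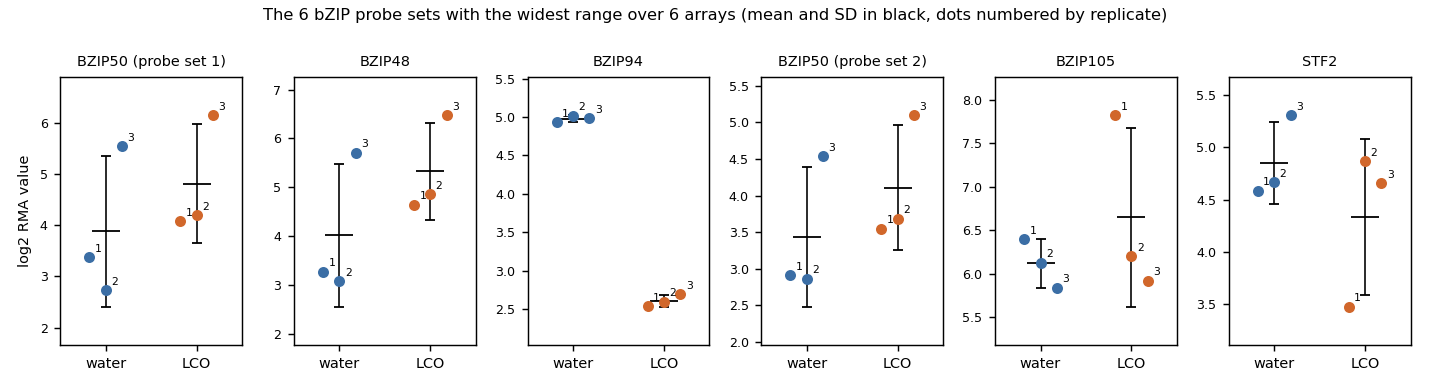
Log2 RMA values (vertical axes, a scale for each panel) in the 3 water and 3 LCO arrays for the 6 bZIP probe sets with the widest range; dots carry the replicate number and black marks show mean and SD. Dots numbered 3 stand highest in both groups for BZIP50 and BZIP48, LCO 1 stands alone for BZIP105 at 7.82, and the groups are far apart for BZIP94 alone.

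The 14 members at background had means from 2.27 to 3.30 and no single value above 3.61. They include all probe sets of 7 gene labels, such as BZIP44 and BZIP132. For those 7, no probe set had a mean above the background level, which does not show that the transcripts are absent. The others include probe sets of BZIP62, BZIP80, BZIP90, BZIP114 and GBF2, genes that also have a tested probe set.

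Genes that work with bZIP factors were counted by lists of symbols. The abscisic acid list held protein kinases of the SPK type, late embryogenesis abundant proteins and seed maturation proteins of the PM series. In it, 24 of 48 probe sets were tested and none passed by limma. None had an unadjusted p under 0.05 either, where 25.8% of all tested probe sets had one. The median log2 change was -0.03, and 11 estimates were higher and 13 lower. SPK-1, a protein kinase, read 6.63, 6.50 and 7.11 in water and 7.12, 7.22 and 7.05 with LCO, and had the smallest p of the list, with a change of 0.39 (SE 0.17, limma adjusted p = 0.216). PM27 had a change of 0.44 (SE 0.20, limma adjusted p = 0.221). The list also holds RAB2 and RAB7P, small GTPases of vesicle transport that matched its letters. A list of bZIP genes under names without a BZIP number held no further probe set.

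The low-energy list held AS2, an asparagine synthetase of the class that small bZIP factors control in Arabidopsis, and SNRK1, an energy-sensing kinase that acts upstream of such factors there. AS2 fell in both probe sets, 3.49-fold in one and 24.4-fold in the other, so the size of its fall is not settled. One read 10.01, 9.88 and 9.96 in water and 8.03, 8.21 and 8.20 with LCO, a log2 change of -1.80 (SE 0.10, limma adjusted p = 5.54e-04). The other read 10.55, 10.56 and 9.98 against 5.54, 6.28 and 5.44, a change of -4.61 (SE 0.27, limma adjusted p = 7.40e-04). The third probe set of that list, of SNRK1, had a change of -0.03 (SE 0.09). None of the 14 endoplasmic reticulum stress probe sets (11 estimates higher, median log2 change 0.14), 7 light receptor probe sets (6 lower, median -0.16) or the 1 salicylate probe set tested passed by limma. An unadjusted p under 0.05 was found for 2, 1 and 1 of them, and for 25.8% of all tested probe sets. PDIL6 (LOC100814374), of the protein disulfide isomerases, and NRP-A, an asparagine-rich protein of soybean stress responses, came nearest in the first, with changes of 0.44 (SE 0.14, limma adjusted p = 0.119) and 0.73 (SE 0.27, limma adjusted p = 0.163). The cryptochrome CRY2B had a change of -0.21 (SE 0.09, limma adjusted p = 0.193) and LOC100808627 (GmCRY2c), a further cryptochrome, of -0.32 (SE 0.16). PR1-7, a pathogenesis-related protein of the class that TGA factors control in Arabidopsis, read 6.70, 5.56 and 5.99 in water and 4.08, 4.41 and 2.69 with LCO. The groups stood apart, but the spread within them was wide, and the change of -2.36 (SE 0.50) did not pass (limma adjusted p = 0.0584). The lowest LCO value, 2.69, lay under the background level, so the size of the change is uncertain. A further PR1-7 probe set had a mean under that level and was not tested.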

How the data were processed

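RNA of sprayed soybean leaves was measured on 6 Affymetrix soybean arrays with biotin-labelled cRNA. The submitters' processing notes name RMA as the authors' method, with no version in the sources used here. The deposited scale is not stated and was taken as log2, since values run from 1.45 to 14.6 with array medians of 3.42 to 3.47. Probe sets were paired with genes through the platform annotation, and symbols were updated by gene ID to RefSeq of Glycine_max_v4.0, which held 64 of 67 member gene IDs.

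Tested were 29286 soybean probe sets with a mean above 3.31, the 90th percentile of 23394 probe sets of other organisms. R 4.3.3 and its package limma 3.58.1 compared LCO with water (lmFit, then eBayes, on a model of group alone), and p-values were adjusted over all of them by Benjamini-Hochberg. A bound on a fold sets the mean of the brighter group against 3.31. The labels do not say that replicates are separate plants, and the p-values then reflect spread among these arrays alone, which may be technical. The number of arrays limits the precision. On simulated data for this comparison, 200 of 29286 probe sets were changed in each of 5 runs. There 52.2% were found at a log2 size of 1, 88.4% at 2 and 95.8% at 3, and 4.36% of calls were false. The simulated noise was independent between arrays and between probe sets. The measured arrays were not equally close to each other, so these rates need not hold for them.

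The members, lists and tests were chosen with earlier results of these data known. Named were the members past the threshold, the 12 with the smallest p, the 5 with the highest mean, other probe sets of these genes, and in each list the members past the threshold and the 2 with the smallest p; any other gene was chosen after its values were seen. Probe sets shared by several genes give no gene name here. No sequences were at hand to print. Python 3.11.15 with matplotlib 3.10.9 made the plots.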

Additional observations from a re-analysis of the deposited data

How the results depend on the processing

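The count of bZIP probe sets past the threshold was 2 in the fit as reported, with no filter, and under both other scalings and the trended prior. It was 1 with the filter at the 99th percentile (4.37), where BZIP94 is not tested, 3 with 1 mean per gene (both BZIP94 probe sets then carry the gene's value), 32 with array weights (10 higher, 22 lower), 1 with the 2 closest water arrays averaged, and 7 under the replicate block. Leaving out single arrays gave 1 to 6. The count over all tested probe sets, 1040, became 9544 with array weights, 203 after averaging water 1 and 2 and, under the replicate block, 3010. Leaving out an array gave 193 (water 2), 199 (water 1), 291 (LCO 3), 416 (LCO 2), 570 (LCO 1) or 2207 (water 3). The cause was not tested. The 32 of 95 members called with array weights lay near the share of 9544 in 29286. The 7 of 95 under the replicate block lay under the share of 3010 in 29286. Array weights called 6 probe sets of the abscisic acid list, where the fit as reported called 0 of 24, and 10 of the partner lists, against 2 of 25. The 6 of 24 lay somewhat under the share over all tested probe sets with array weights, and the 10 of 25 somewhat above it. Both lists are short, and these differences were not tested. Leaving out 1 array gave 0 to 1 in the abscisic acid list, the 1 being without water 3. The list of bZIP genes under other names held no probe set, so it has no value.

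Over 310 fits of 21 bZIP probe sets under these alternatives, 287 kept direction and side of the threshold, 6 lost the call, all of BZIP95, and 16 gained one, 11 of them under array weights. The second probe set of BZIP28 changed sign: it ran from -0.43 without LCO 3 to 0.016 without LCO 1. Replicate numbers do not mark a shared plant or batch in the labels. Deviations of same-numbered arrays correlated at 0.452, -0.036 and 0.527 across probe sets. Water 2 correlated best with LCO 1 (0.448), but water 1 and water 2 were themselves the closest arrays. These values do not settle whether the numbers pair the arrays, and the fit as reported did not pair them. Under the replicate block, BZIP48, BZIP85, BZIP98, BZIP50 and LOC778136 joined the calls.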
